A study of Mus musculus with 6 samples.

Results

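5-Hydroxymethylcytosine (5hmC) peaks listed for brain with ischemic injury that overlap no peak listed for control brain, but lie beside one, were described here. Absence from the control list does not show that 5hmC was absent in control brain. The members were the peaks of the injury list on the autosomes (chromosomes 1 to 19) that overlapped no control-list peak by 1 bp or more and whose nearest edge lay within 10 kb of the edge of a control-list peak. They were thus chosen by measured values, the called positions of the peaks in both lists, and not by their scores. There were 15879 of them, among 53374 injury-list peaks in all and 53341 on the autosomes. They are called flanking peaks below. The other 19236 autosomal injury-list peaks without control overlap are called far peaks, and the 18226 that overlapped the control list are called shared injury peaks. An autosomal control-list peak is called shared when an injury-list peak overlapped it.

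The study compared brain tissue of C57BL/6 mice with ischemic injury and matched brain tissue of control C57BL/6 mice, 3 mice per group. 5hmC was captured by hMe-Seal, which attaches a modified glucose to 5hmC and pulls down the labelled DNA for sequencing. Each group is represented by 1 deposited list of enriched regions on the mouse mm9 genome, so no value has a replicate error, the variation from mouse to mouse is not known for any difference given here, and no test of the conditions was made. The depth behind the lists is unknown. The brain is a mixture of cells, and more cells carrying 5hmC at a site cannot be told apart from more 5hmC per cell. Age, brain region and the time after injury were not given in the sources used here, and the tissue label was not checked against markers, because the lists hold peak positions and scores and no gene names.

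5hmC is made from 5-methylcytosine by the TET dioxygenases, which oxidise the methyl group. In neurons it is an abundant and lasting base that is found mainly over gene bodies and at distal regulatory elements, and it is also an intermediate on the way to removal of the methyl mark. In enrichment data it often forms broad stretches that a peak caller cuts into several neighbouring intervals.

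Of the 53341 autosomal injury-list peaks, 65.8% overlapped no control-list peak. The flanking peaks made up 45.2% of these 35115 injury-only peaks (95% exact binomial interval 44.7 to 45.7%) and 29.8% of the whole autosomal injury list (29.4 to 30.2%). Distance from control peaks defined the flanking peaks, so these shares describe the choice and carry no test. Intervals here cover counting error only and treat each peak as an independent count, which neighbouring peaks are not. The injury list is the longer one. When only its top-scoring peaks were kept, so that both lists had the same length, 4716 flanking peaks were left, and they were 54.6% of the injury-only peaks in the reduced list.

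The 5 highest-scoring flanking peaks show what these regions look like. The score of a peak was given by the authors' peak caller and deposited with it, and no score was below 50 in either list. On chromosome 4 (46624740 to 46634479, score 964.29) a peak of 9.74 kb lay between control peaks 10.4 kb to its lower side and 5.16 kb to its higher side. In the injury list the next peak on its higher side began only 0.041 kb away, and 13 flanking peaks, itself included, lay within 50 kb of its edges, beside 4 control peaks. This was the locus with the most flanking peaks among the 5.

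On chromosome 8 (111421659 to 111433395, score 834.77) the flanking peak of 11.7 kb lay between control peaks 8.65 kb and 2.40 kb away. The control peak on its higher side (score 461.02 in the control list) was itself overlapped by an injury-list peak, with a score of 622.06, below that of the flanking peak. On chromosome 11 (113592942 to 113601481, score 793.02) the flanking peak of 8.54 kb had control peaks at 1.26 kb and 3.53 kb. Here too the injury-list peaks on the neighbouring control peaks scored lower, at most 568.95 and 176.47. The chromosome 8 and chromosome 11 peaks thus had control peaks within 10 kb on both sides.

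On chromosome 17 (30643058 to 30658120, score 753.85) the flanking peak was 15.1 kb wide and stood 6.28 kb from a broad control peak of 15.3 kb. That control peak was covered by injury-list peaks scoring up to 1025.15, above the flanking peak. On the other side the next control peak was 14.1 kb away. On chromosome 10 (80756898 to 80767242, score 708.12) the flanking peak of 10.3 kb lay between control peaks at 1.91 kb and 7.19 kb, in a neighbourhood with 14 control peaks within 50 kb. Its neighbour in the injury list, 0.394 kb away, was a shared injury peak of 15.0 kb with a score of 874.3. In all 5 loci the control peaks next to the flanking peak on either side were also overlapped by injury-list peaks, as were 81.3% of all autosomal control peaks.

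**Figure D1:**
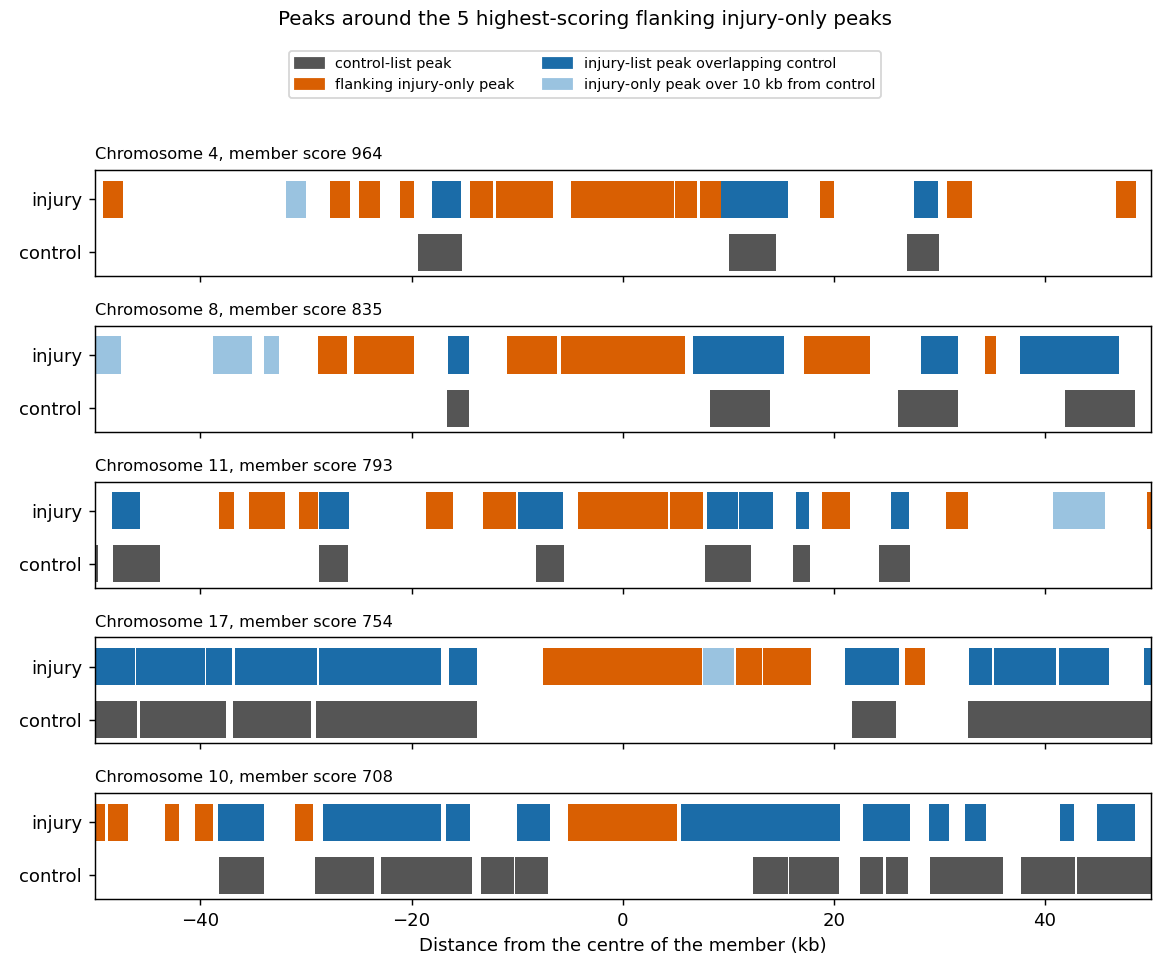
Positions of control-list peaks (lower track) and injury-list peaks (upper track) within 50 kb of the centre of each of the 5 highest-scoring flanking peaks; the x axis is the distance from that centre in kb and the colours give the class of each injury-list peak. The flanking peaks (orange) lie in stretches between control peaks, and on chromosome 4 several follow each other almost without a gap.

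Flanking peaks were more numerous close to the control peaks, a description by the same distance that the rule used. Their median gap to the nearest control peak was 3.20 kb, with quartiles of 1.22 and 5.94 kb. There were 3435 within 1 kb (21.6%), 2200 from 1 to 2 kb and 1514 from 4 to 5 kb, and the number fell with each further kilobase to 815 from 9 to 10 kb (5.13%). A total of 1884 lay within 500 bp (11.9%). The sequence under no control peak also thinned with distance, from 36.6 Mb within 1 kb of a control peak to 99.2 Mb across the whole 5 to 10 kb range. Per Mb of it, the number of nearest edges fell less steeply, from 93.8 within 1 kb to 51.9 at 5 to 10 kb. The nearest control peak lay at the lower coordinate for 7942 and at the higher for 7937, a share of 50.0% (49.2 to 50.8%), so neither side of the control peaks held more.

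The 10 kb limit was not an edge in the data. The densities by distance given here use the values that define the set and are a description. Sequence within 10 kb of a control peak came to 245.2 Mb, 10.6% of the 2307 Mb of autosomal sequence that lay inside the outermost peaks and under no control peak. It held the midpoints of 14962 injury-only peaks, 61.0 per Mb, against 9.77 per Mb farther away, a ratio of 6.24. By shell, the density was 81.5 per Mb at 1 to 2 kb from a control peak (exact Poisson interval 78.4 to 84.7), 76.8 at 2 to 5 kb, 60.7 at 5 to 10 kb, 42.4 at 10 to 20 kb, 26.4 at 20 to 50 kb, 15.2 at 50 to 100 kb and 2.58 beyond 100 kb. The innermost kilobase held only 10.7 midpoints per Mb because a peak whose midpoint lies there must be under 2 kb wide to miss the control peak. The same limit, looser with distance, also acts in the next shells, and so on the 81.5 per Mb and the ratio of 6.24. Counted by nearest edges, the innermost kilobase was the densest shell, at 93.8 peaks per Mb, and the ratio was 6.94.

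**Figure D2:**
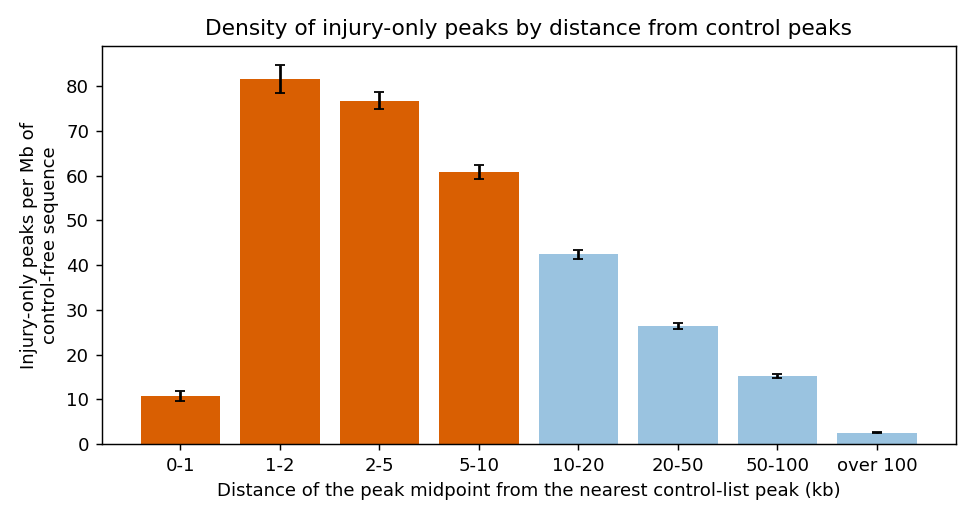
Injury-only peak midpoints per Mb of control-free sequence (y axis) in shells of distance from the nearest control-list peak in kb (x axis), with exact Poisson 95% intervals; orange bars lie within 10 kb. The density falls from 81.5 per Mb at 1 to 2 kb to 2.58 per Mb beyond 100 kb, with no step at 10 kb.

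The scores of the 3 peaks just inside and the 3 just outside the limit overlapped in range, with the highest outside. So few peaks cannot show whether scores differ across the limit. The last flanking peak, with a score of 58.63, lay 9999 bp from control on chromosome 3 (129759720 to 129762657). Before it came a peak at 9997 bp on chromosome 4 with a score of 80.92 (137833336 to 137834628) and another at 9996 bp on chromosome 18 with a score of 64.49 (33613050 to 33615095). The nearest far peak, with a score of 100.35, lay 10001 bp from control on chromosome 11 (120571061 to 120573517). It was followed by a peak on chromosome 5 with a score of 93.0 (121722095 to 121724311) and another on chromosome 13 with a score of 67.2 (95294345 to 95296219), each at 10003 bp. The gap is the only value that places these 6 peaks in different sets.

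Width is tied to the rule, since a wider peak close to a control peak is more likely to overlap it and be counted as shared. Score was not used to choose the flanking peaks, but it rose with width among them (Spearman rho 0.63, n 15879). It is therefore not free of the rule, and widths and scores are both given as a description. The median flanking peak was 1988 bp wide, with quartiles at 1517 and 2690 bp, the median far peak 1819 bp (1419 and 2377 bp) and the median shared injury peak 2578 bp (1811 and 3829 bp). The median score was 80.2 for flanking peaks (quartiles 61.9 and 114.8), 72.2 for far peaks (58.6 and 97.5) and 140.0 for shared injury peaks (86.8 and 233.1). In both measures flanking peaks thus stood between far and shared peaks, nearer to the far ones, with wide overlap of the classes. Of the flanking peaks, 58.8% were wider and 59.5% scored higher than the median far peak. The medians were higher than those of the far peaks on all 19 autosomes in both measures, though on chromosome 7 the width medians were close, 1892 and 1867 bp.

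Flanking and far peaks differed more at the top of the range. Shared injury peaks lay above both, with upper quartiles of 233.1 in score and 3829 bp in width (flanking peaks 114.8 and 2690 bp). Scores of 200 or more were reached by 899 flanking peaks (5.66%, 5.31 to 6.03%) and 497 far peaks (2.58%, 2.36 to 2.82%). Widths of 10 kb or more were reached by 21 flanking peaks (0.132%, 0.0819 to 0.202%) and 3 far peaks (0.0156%, 0.00322 to 0.0456%). Read the other way, flanking peaks were 38.2% of the lowest-scoring 10% of injury-only peaks (36.6 to 39.8%) and 58.9% of the highest-scoring 10% (57.3 to 60.6%). The highest-scoring injury-only peaks were thus more often beside control peaks than the weakest ones were.

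Among the flanking peaks themselves, distance was only weakly tied to score or width. Within 500 bp of a control peak the median score was 82.6 and the median width 1997 bp, and from 9 to 10 kb they were 74.9 and 1926 bp. The decline went on outside the limit, to a median score of 66.9 and a width of 1672 bp beyond 100 kb. The quartiles of neighbouring distance classes overlapped throughout.

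**Figure D3:**
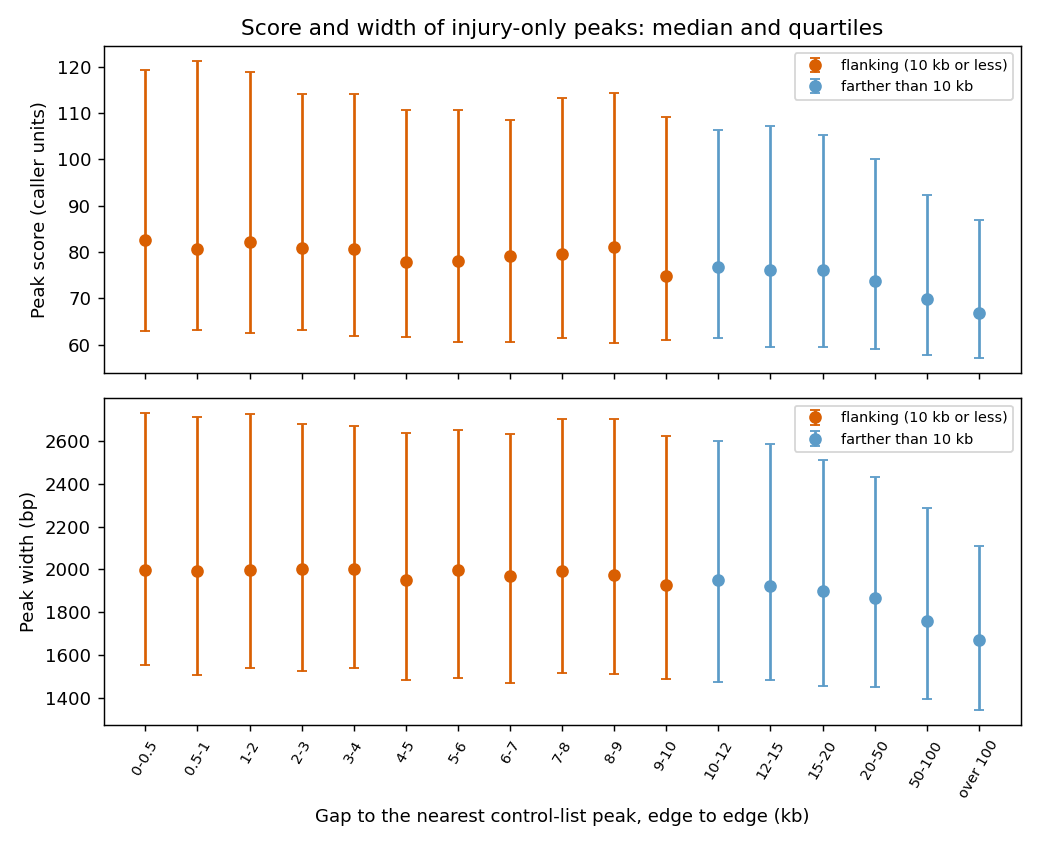
Median score (upper panel, the peak caller's units) and median width (lower panel, bp) of injury-only peaks by edge-to-edge gap to the nearest control-list peak in kb, with bars from the lower to the upper quartile; orange points are flanking peaks, blue points far peaks. Both medians drift down with distance, from 82.6 and 1997 bp at 0 to 0.5 kb to 66.9 and 1672 bp beyond 100 kb, and the quartile ranges overlap.

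The 5 widest flanking peaks were not all high-scoring. The widest ran for 19.6 kb on chromosome 5 (114808695 to 114828271, score 614.16) and had control peaks 2.95 kb and 4.80 kb away, which scored only 54.6 and 68.12 in the control list. Chromosome 5 held 2 more of the 5, a peak of 17.0 kb (115968580 to 115985616, score 452.56) and a peak of 15.4 kb (115122626 to 115138049, score 633.68), the latter 1.29 kb from a control peak without injury overlap. These 3 peaks lie close together on the chromosome, and chromosomes 5 and 8 each held 4 of the 21 flanking peaks of 10 kb or more. The second widest, 17.5 kb on chromosome 12 (109493225 to 109510705), had a score of only 129.94. It began 0.29 kb from a shared injury peak with a score of 963.23. The fifth was the chromosome 17 peak of 15.1 kb already described.

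Most flanking peaks had a nearest control peak that an injury-list peak also overlapped, as most control peaks did in general. The nearest control peak of a flanking peak was shared in 13682 of 15879 cases (86.2%, 85.6 to 86.7%), against 81.3% (80.8 to 81.9%) of all autosomal control peaks, and the share was the higher one on all 19 autosomes. Several flanking peaks can have the same control peak, so these cases are not independent. Where the nearest control peak was shared, the flanking peak had a median score of 81.2 and the best injury-list peak on that control peak a median score of 160.0. Both scores come from the injury list. The flanking peak scored above it in 2847 of 13682 cases (20.8%, 20.1 to 21.5%), and the median ratio of its score to that of the peak on the control position was 0.55. The typical flanking peak was thus the lower-scoring neighbour of an injury-list peak at the control position. The leading peaks on chromosomes 4, 8, 10 and 11 were among the exceptions. Shared injury peaks also scored higher as a class, with a median of 140.0 against 80.2 for flanking peaks. Across the 13682 cases the flanking score was only weakly tied to that best score (Spearman rho 0.11).

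The remaining 2197 flanking peaks had a nearest control peak that no injury-list peak overlapped. They were narrower and lower in score than the others, with medians of 1838 bp and 74.3 against 2015 bp and 81.2. Of these, 438 lay within 1 kb of that control peak (19.9%, 18.3 to 21.7%), a share close to the 21.9% (21.2 to 22.6%) of flanking peaks beside a shared control peak. Seen from the control list, 1913 of its 3834 autosomal peaks without injury overlap had a flanking peak within 10 kb (49.9%, 48.3 to 51.5%), against 11553 of 16721 shared control peaks (69.1%, 68.4 to 69.8%). The mirror share, of unshared control peaks within 10 kb of any injury-list peak, was 2503 of 3834 (65.3%, 63.8 to 66.8%). It cannot be compared with the 45.2% of injury-only peaks that flank, since the lists differ in length.

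Of all 20555 autosomal control peaks, 13466 had a flanking peak within 10 kb (65.5%, 64.9 to 66.2%) and 4511 had them on both sides (21.9%, 21.4 to 22.5%). The share rose with the width of the control peak, from 50.7% (48.5 to 52.9%) in the narrowest 10% to 72.1% (70.1 to 74.0%) in the ninth decile, and was 70.3% in the widest 10%. It varied less with the control score. It was 61.7% (59.6 to 63.8%) in the lowest-scoring 10%, reached 68.4% (66.4 to 70.4%) in the eighth decile and was 61.2% (59.1 to 63.3%) in the highest-scoring 10%. The strongest control peaks were therefore flanked about as often as the weakest.

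**Figure D4:**
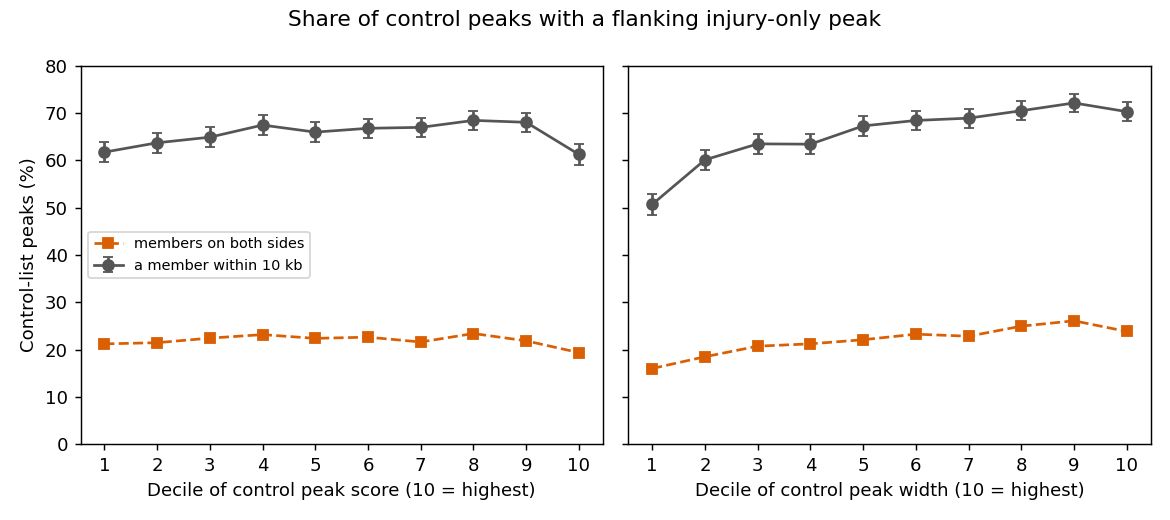
Share of autosomal control-list peaks (y axis, %) that have a flanking injury-only peak within 10 kb (grey, with exact binomial 95% intervals) or on both sides (orange), by decile of the control peak's score (left) and width (right). The share rises with width from 50.7% to 72.1% in the ninth decile and stays between 61.2% and 68.4% across score.

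When each flanking peak was assigned to its nearest control peak, 5939 control peaks had 1 flanking peak, 2688 had 2, 1025 had 3, 289 had 4, 52 had 5, 11 had 6 and 1 had 7. All 12 control peaks with 6 or more were shared, as were 81.3% of all autosomal control peaks, and 12 peaks are too few to set against that share. The 5 described here are the peak with 7 and, of the 11 tied at 6, the 4 with the highest control score. A control peak of 2.10 kb on chromosome 11 (118729116 to 118731220, score 118.74) had 7 flanking peaks, 3 on its lower and 4 on its higher side, which spanned 23.2 kb and scored 59.34 to 102.13. The injury-list peak on that control position scored 203.62, above all 7. A control peak of 3.01 kb on chromosome 11 (100229274 to 100232285) had 6, all on its higher side and packed into 13.9 kb, and the best of them, at 202.88, passed the 196.54 of the injury-list peak on the control position. The remaining 3 control peaks had 6 flanking peaks each, on both sides. They lay on chromosome 12 (111872089 to 111879092; best flanking score 148.58), on chromosome 8 (124565194 to 124568926; 137.43) and on chromosome 17 (9139998 to 9142344; 107.07).

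The spaces between neighbouring control peaks held part of the flanking peaks. Of the flanking peaks, 4053 had control peaks within 10 kb on both sides (25.5%, 24.8 to 26.2%). They were slightly wider and higher in score than those with control on a single side, with medians of 2067 bp and 85.4 against 1964 bp and 78.7. Spaces of 2 to 5 kb between neighbouring control peaks held an injury-only peak in 463 of 2765 cases (16.7%, 15.4 to 18.2%), spaces of 5 to 10 kb in 1267 of 2610 (48.5%, 46.6 to 50.5%) and spaces of 10 to 20 kb in 1972 of 2828 (69.7%, 68.0 to 71.4%). The injury-only peaks covered 9.49%, 18.2% and 20.1% of the bases in these spaces. Of the spaces of 1 to 2 kb, 6 of 1278 held a peak, and of those up to 1 kb 0 of 2408 did (exact upper bound 0.153%). For scale, the flanking peaks had a lower quartile of 1517 bp in width, and all but 5% of them were wider than 1175 bp.

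Flanking peaks lay close to other injury-list peaks. Another injury-list peak was within 1 kb of 7236 flanking peaks (45.6%, 44.8 to 46.3%), of 19.8% of far peaks (19.2 to 20.4%) and of 49.7% of shared injury peaks (49.0 to 50.4%). The distance rule itself sets much of this difference, since only 1 far peak had a shared injury peak within 1 kb. The neighbour within 1 kb was a shared injury peak for 3541 flanking peaks (22.3%) and another flanking peak for 4181 (26.3%). With shared injury peaks left out as neighbours, 28.2% of flanking peaks (27.5 to 28.9%) and 19.8% of far peaks (19.2 to 20.4%) had an injury-only peak within 1 kb, a comparison that was added after the values were seen and is still bound to the distance rule. A limit of 100 bp was also chosen after the values were seen, and there shared injury peaks again counted as neighbours. Another injury-list peak was that close to 7.82% of flanking, 3.41% of far and 12.7% of shared injury peaks. When peaks of each list within 1 kb of each other were merged first, 10123 flanking intervals were left, fewer by more than 1.5 times. The part that cutting of broad stretches by the caller has in these shares was not tested.

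Joined where they lay within 10 kb of each other, the flanking peaks formed 8847 groups. Of these, 5038 were single peaks and 378 held 5 or more, with 2230 flanking peaks among them. The largest group, on chromosome 7 (105987637 to 106077415), had 16 flanking peaks over 89.8 kb, of which they covered 37.2 kb, around 4 control peaks and 4 shared injury peaks. None of the 16 scored above 205.96. The next were on chromosome 4, with 13 flanking peaks over 76.3 kb around 2 control peaks (139603034 to 139679321, best score 163.07) and 12 over 61.0 kb around 3 (137032446 to 137093432, best score 426.34). The latter was 1 of 3 groups of 12 and is named because its best score was the highest of them. In each of the groups named flanking peaks far outnumbered control peaks, but the groups were picked for their number of flanking peaks. Over all autosomal control peaks there were 0.77 flanking peaks per control peak.

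The windows of 1 Mb with the most flanking peaks were also full of control peaks, which the rule requires nearby. On chromosome 11 from 113 to 114 Mb there were 74 flanking peaks, 66 control peaks and 30 far peaks. On chromosome 8 from 124 to 125 Mb there were 69, 63 and 15, and on chromosome 11 from 118 to 119 Mb 68, 63 and 12.

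By autosome, the share of injury-only peaks that flank ran from 32.9% on chromosome 3 (30.6 to 35.3%), 33.1% on chromosome 13 (30.5 to 35.7%) and 33.4% on chromosome 6 (31.2 to 35.6%) to 53.8% on chromosome 11 (51.8 to 55.7%) and 55.6% on chromosome 4 (53.7 to 57.5%). It was higher where control peaks were denser, 4.33 per Mb on chromosome 3 and 15.3 on chromosome 11. More control peaks also put more sequence within 10 kb of one, 6.36% of the control-free sequence on chromosome 3 and 17.6% on chromosome 11. Per Mb of such sequence there were 49.9 injury-only peaks on chromosome 3 and 66.5 on chromosome 11, and 71.2 on chromosome 15 and 70.9 on chromosome 4, the 2 highest values. The ratio of this density to that farther away ran from 4.77 on chromosome 9 to 7.64 on chromosome 12, with 6.42 on chromosome 3 and 4.77 on chromosome 11, and was above 1 on every autosome. These densities rest on the same distances as the rule and are a description. The number of flanking peaks per control peak varied little, from 0.69 on chromosome 17 to 0.88 on chromosome 14.

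**Figure D5:**
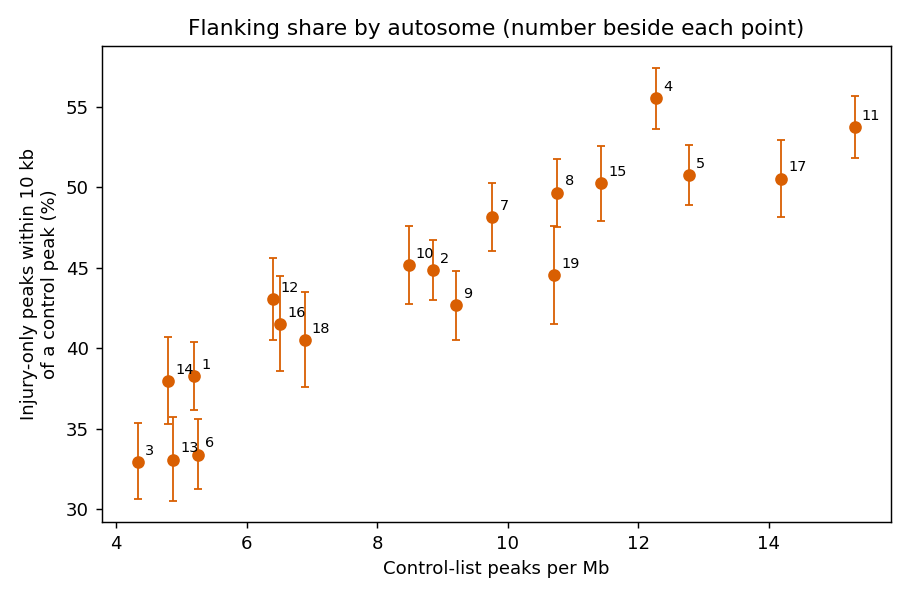
Share of injury-only peaks within 10 kb of a control-list peak (y axis, %, with exact binomial 95% intervals) against control-list peaks per Mb (x axis) for the 19 autosomes, each labelled with its number. The share rises from 32.9% on chromosome 3 to 55.6% on chromosome 4 and 53.8% on chromosome 11.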

How the data were processed

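The deposited files are 2 peak lists on build mm9, 1 per group, without a header, for 3 control and 3 injured mice. Per the submitters' processing notes, CASAVA 1.4, Bowtie 0.12.9 and MACS 1.4.2 were used; no source used here gives settings, read numbers, pooling of mice or an input control. The score of each peak is the deposited value of the authors' caller and was used to describe and rank peaks within a list. The group of a list follows from its CTL or IR tag, which the sample titles carry too.

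Gaps were counted in bp from edge to edge, and printed positions count from 1. Shares carry exact Clopper-Pearson 95% intervals, densities exact Poisson intervals, and no p-value was computed. Computations used Python 3.11.15 with pandas 2.3.3, numpy 2.4.6 and scipy 1.17.1, and figures matplotlib 3.10.9. On simulated peaks placed at known gaps beside the real control list, 100% of 500 gaps were recovered, and on chromosome 19 a direct comparison of all pairs gave 0 mismatches. Regions were named by a rule: the 5 highest-scoring and 5 widest flanking peaks, the 5 control peaks with the most, the 3 largest groups, the 3 fullest windows and 3 peaks on each side of the limit, with ties broken by score, then width. The set and these rules were chosen with earlier results of these data known. No annotation or genome of mm9 was used, so no gene, feature or sequence is given. The X chromosome is outside the set.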

Additional observations from a re-analysis of the deposited data

How the results depend on the processing

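The set changed with its definition. The number of flanking peaks was 3435 at a limit of 1 kb, 5635 at 2 kb, 10736 at 5 kb, 21450 at 20 kb and 27963 at 50 kb, with shares of injury-only peaks of 9.78%, 16.0%, 30.6%, 61.1% and 79.6%. With control peaks at or above the control median score it was 12156 (28.5%); by construction, injury-list peaks on the dropped control peaks then count as injury-only. With injury peaks at or above the injury median score it was 6774 (51.8%), with peaks within 1 kb merged 10123 (37.4%), with an overlap of 50% of both peaks needed for sharing 21039 (52.2%) and with the reduced injury list 4716 (54.6%).

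Flanking peaks stayed above far peaks in median width and score under the 3 alternatives given next. For the other alternatives above, these medians are not given here. At 5 kb the medians were 1993 and 1849 bp, and 81.1 and 73.3 in score; at 20 kb 1970 and 1783 bp, and 79.1 and 70.8; with injury peaks at or above the injury median score 2642 and 2453 bp, and 123.0 and 114.0. The share wider than the far median was then 57.4%, 59.7% and 57.2%. Each autosome on its own gave 51.0% to 65.2% for width, where the lowest, with an interval of 47.9 to 54.0%, includes an even split, and 55.7% to 63.8% for score.

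The nearest control peak was shared for 87.2% of flanking peaks at 1 kb, 86.8% at 5 kb, 85.3% at 20 kb and 93.3% with control peaks at or above the control median score. Another injury-list peak lay within 2 kb of 62.4% and within 5 kb of 85.6%. Control peaks on both sides were found for 16.3% at 5 kb and 38.1% at 20 kb. Control peaks with a flanking peak were 16.7% at 1 kb, 47.1% at 5 kb, 82.3% at 20 kb, 75.9% when the lower-scoring control peaks were dropped and flanking peaks were chosen anew (66.3% of the same control peaks have a flanking peak of the original set) and, in an alternative added after the data were seen, 52.9% of those with no other control peak within 20 kb. The density ratio of 6.24 was 7.82 with injury peaks at or above the injury median score and 6.94 by nearest edges, which was also added later. No paired analysis was possible because the files give 1 list of peaks for a whole group; single mice could not be left out either. The depth of the lists is unknown, and a deeper library gives more peaks, so the numbers describe these lists and not total 5hmC.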
